A study of Homo sapiens with 12 samples.

Results

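Interferon-stimulated genes are the genes that cells switch on when an interferon, or a sensor of foreign or misplaced nucleic acid, signals through the JAK-STAT pathway. Here 39 of them, a list of symbols set with earlier results of these data known, were followed through RNA-seq of FDX2-iKO ES2 cells. All 39 are among the 58735 genes of the count table, 37 had at least 1 count in a library, and 31 passed the count filter and were tested. ES2 is a human ovarian cancer line. In FDX2-iKO ES2 cells the endogenous FDX2 gene, which encodes a mitochondrial ferredoxin of Fe-S cluster assembly, was knocked out by CRISPR-Cas9, and an HA-tagged FDX2 that the editing cannot cut is expressed from a doxycycline (Doxy)-driven TetON promoter. The cells with Doxy therefore carry the knockout, the transgene and the drug, and the cells without Doxy carry the knockout and the uninduced transgene. The methods use clone 1 of these cells unless another is named.

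The 4 conditions were 20% O2 + Doxy, 20% O2 wo Doxy, 3% O2 + Doxy and 3% O2 wo Doxy, each with 3 libraries that are labelled biological replicates. Culture at 20% O2, in medium that held Doxy or not, lasted 6 days. For 3% O2 the cells first spent 4 days in either medium at 20% O2 and then 3 days under low oxygen, so the time since Doxy withdrawal and the oxygen level cannot be told apart. The drug and FDX2 were withdrawn together, and their effects likewise cannot be told apart. The comparison of cells without and with Doxy is called FDX2 loss here. Levels are given in CPM (edgeR's counts scaled to a common library size, with TMM factors), and levels of different genes are compared only in RPKM, the CPM divided by the exon length in kilobases.

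Type I interferons bind the receptor chains IFNAR1 and IFNAR2, whose kinases JAK1 and TYK2 phosphorylate STAT proteins. STAT2 and IRF9 are subunits of the factor ISGF3, which binds the interferon-stimulated response element (ISRE) in promoters. Interferon gamma acts mainly at the GAS element. The products include RNA-binding proteins that stop viral translation, membrane proteins that block virus entry, GTPases that coat intracellular pathogens, and the sensors and factors of the pathway itself, so that the response feeds itself. In tumor cells parts of the set are also expressed without added interferon.

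Promoter letters give a first view of what the members share. RefSeq promoters on GRCh38.p14, from 250 bases before to 50 bases after the transcript start, were at hand for 30 of the 39 members. No entry was found for IFIT2, OAS2, OASL, MX2, GBP2, IFITM2, USP18, TRIM22 and IRF7. The core letters of the ISRE were taken as GAAANNGAAA, or TTTCNNTTTC on the other strand, and overlapping matches were counted singly. They occurred in a promoter of 21 of the 30 members, against 3.57% (1255 of 35116) of all promoters of this length in the table. The core of the GAS element, TTCNNNGAA, reads the same on both strands and stood in 8 of the 30, against 7.66% (2689) of all promoters. A member was counted if any of its entries matched, and the 30 members have 40 entries. The share over all promoters counts each entry singly, so the units differ. A match is a description of letters and not a binding site. The promoters of 4 members are printed so that the letters can be set beside the RNA values below. IFIT3 and IFIT1 are neighbours on chromosome 10, each with 2 ISRE cores, of which IFIT3 was called changed and IFIT1 was not. GBP1 has 1 core, and SAMD9L, which had one of the largest called folds, has 0. Capitals mark the ISRE cores, and the sequences run 5′ to 3′ on the strand of the gene, for IFIT3 at chr10:89327747-89328046 (+), for IFIT1 at chr10:89392373-89392672 (+), for GBP1 at chr1:89065159-89065458 (-) and for SAMD9L at chr7:93148336-93148635 (-).
IFIT3: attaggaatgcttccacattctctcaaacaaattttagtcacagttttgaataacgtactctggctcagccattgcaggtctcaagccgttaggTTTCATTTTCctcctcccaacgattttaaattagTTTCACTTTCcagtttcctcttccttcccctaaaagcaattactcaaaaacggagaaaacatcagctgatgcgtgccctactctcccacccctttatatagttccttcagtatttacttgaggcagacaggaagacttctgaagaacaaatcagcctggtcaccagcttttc
IFIT1: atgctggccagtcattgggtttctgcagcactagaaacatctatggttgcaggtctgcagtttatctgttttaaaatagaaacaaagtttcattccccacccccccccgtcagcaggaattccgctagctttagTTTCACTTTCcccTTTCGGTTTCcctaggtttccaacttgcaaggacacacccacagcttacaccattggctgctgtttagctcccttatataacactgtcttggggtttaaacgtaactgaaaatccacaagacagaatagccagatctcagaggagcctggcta
GBP1: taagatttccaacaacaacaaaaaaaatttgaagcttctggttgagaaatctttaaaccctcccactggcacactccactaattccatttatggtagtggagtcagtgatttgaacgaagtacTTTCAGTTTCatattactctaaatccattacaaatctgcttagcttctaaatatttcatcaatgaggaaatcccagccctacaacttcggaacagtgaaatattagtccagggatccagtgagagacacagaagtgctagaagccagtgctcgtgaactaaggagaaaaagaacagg
SAMD9L: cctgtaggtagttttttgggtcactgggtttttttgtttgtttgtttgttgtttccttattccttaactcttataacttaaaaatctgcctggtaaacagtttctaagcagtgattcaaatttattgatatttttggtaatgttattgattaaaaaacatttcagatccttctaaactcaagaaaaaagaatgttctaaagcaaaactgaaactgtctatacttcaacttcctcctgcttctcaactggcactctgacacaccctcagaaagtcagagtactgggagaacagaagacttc

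The libraries held between 24958386 and 34313637 counts on genes (median 29621780), and in each condition the replicates differed by more than sampling of reads gives. The 39 members together took between 244 and 299 CPM of a library. FDX2 itself had 2 to 13 counts in every library, too few to be tested. The counts were 5, 2 and 6 with and 9, 13 and 4 without Doxy at 20% O2, and 2, 4 and 12 with and 7, 7 and 5 without Doxy at 3% O2, so they were not lower on average without Doxy. Of its exonic bases 70.9% lie in other annotated genes of the same strand, and the loss of FDX2 cannot be checked in these counts. The epithelial and mesenchymal genes KRT8, KRT18, KRT7, VIM and CD44 were expressed in every library, and some of them changed, as given with the comparisons. The leukocyte markers PTPRC, CD3E, CD14 and ITGAM had at most 6 counts in any library, and NCAM1, which other tissues express too, had 30 to 42. The endothelial markers PECAM1 and VWF also had at most 6 counts, while CDH5 had 32.1 CPM on average. In the cells at 3% O2 with Doxy, replicate 2 stood apart for these genes: it held the highest of the 3 values for 20 of the 37 members with a count, and for 12 of the 14 whose mean was under 1 CPM. The numbers of called members without this library are given with each comparison it enters.

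Most members were expressed at a low level. Of the 31 tested, 8 had a mean of at least 10 CPM over the 12 libraries and 8 had less than 1 CPM. Per kilobase, IFITM2 (13.2 RPKM), IFI44 (12.4), IFITM3 (9.03) and IFIT5 (7.97) had the highest mean levels. They were followed by STAT2 (5.78 RPKM), SAMD9 (5.23), DTX3L (4.74) and IFIT3 (3.69). Genes that are often used to report an interferon response stood far lower, with 0.475 RPKM for IFIT1, 1.67 RPKM for ISG15 and 0.0619 RPKM for OAS2.

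**Figure D1:**
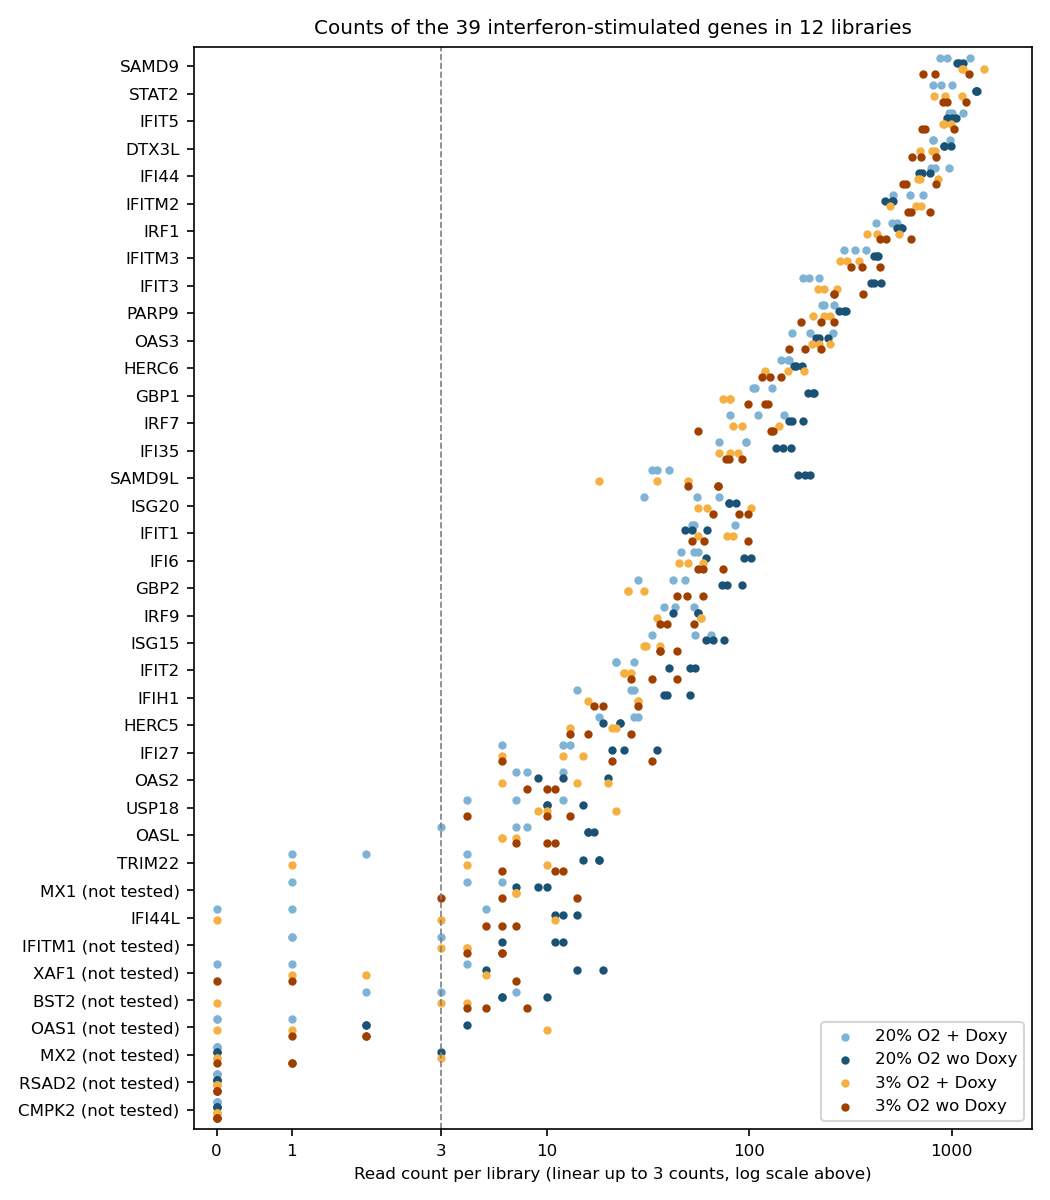
Read counts of the 39 interferon-stimulated genes (vertical axis, ordered by mean CPM) in each of 12 libraries (horizontal axis, linear to 3 counts and logarithmic above). Each point is 1 library, colours are the 4 conditions, and the dashed line marks 3 counts; SAMD9 and STAT2 stand at the top, with at least 724 and 807 counts in every library, and RSAD2 and CMPK2 at 0 in every library.

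The 8 members that were not tested include several of the best known antiviral effectors. RSAD2 (viperin, a radical SAM Fe-S enzyme that makes a chain-terminating nucleotide) and its neighbour CMPK2 (a mitochondrial nucleotide kinase) had 0 counts in all 12 libraries. A count of 0 allows up to 3 counts in a library, which is 0.0882 to 0.121 CPM at these depths and covers counting error alone. MX2, a GTPase that blocks nuclear import of viral genomes, had at most 3 counts in a library. OAS1, an enzyme that makes the 2-5A messenger of RNase L, had 0, 0 and 1 with Doxy and 4, 2 and 2 without Doxy at 20% O2, and 1, 10 and 0 with and 1, 2 and 2 without Doxy at 3% O2. Its highest count thus lay in replicate 2 at 3% O2 with Doxy. The GTPase MX1 had counts of 1, 4 and 6 with Doxy and 7, 10 and 9 without Doxy at 20% O2, and 7, 7 and 7 with and 3, 6 and 14 without Doxy at 3% O2. BST2 (tetherin, which holds budding virus at the membrane) had 2, 3 and 7 with Doxy and 6, 10 and 6 without Doxy at 20% O2, and 3, 4 and 0 with and 4, 5 and 8 without Doxy at 3% O2. For IFITM1 the counts were 3, 1 and 1 with Doxy and 11, 12 and 6 without Doxy at 20% O2, and 4, 3 and 4 with and 4, 6 and 6 without Doxy at 3% O2, and 32.5% of its exonic bases are shared with IFITM2. XAF1, a pro-apoptotic protein, had 0, 1 and 4 with Doxy and 19, 5 and 14 without Doxy at 20% O2, and 1, 5 and 2 with and 0, 7 and 1 without Doxy at 3% O2. IFITM1 and XAF1 thus had their highest counts in the cells at 20% O2 without Doxy, and no fold is given at such counts. When the count filter was left out, IFITM1 was called higher with FDX2 loss at 20% O2 (edgeR, adjusted p = 0.00628).

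At 20% O2, FDX2 loss was accompanied by higher RNA of several interferon-stimulated genes from different roles. The RNA-binding proteins IFIT3 and IFIT2, the GTPases GBP1 and GBP2 and the translation inhibitor SAMD9L rose, as did the transcription factor subunit STAT2. In all 12 of the 31 tested members were called higher at a Benjamini-Hochberg adjusted p under 0.05 in edgeR's quasi-likelihood test (38.7%), against 17.6% of all 16891 tested genes. Lower calls numbered 2 (6.45%), IFITM2 and IFI44, against 17.7% of all genes. The median log2 fold change of the tested members was 0.55, and that of all tested genes 0.01. OASL and IFI44L reached the level of the count filter in 3 libraries only through the cells at 20% O2 without Doxy, so these could not enter the test without being high there. Without both, 11 of 29 members were called higher (37.9%), 5 of them past 2-fold. Without replicate 2 of the cells at 3% O2 with Doxy, which enters through the shared spread and the count filter, 13 members were called higher and 1 lower. IFIH1 and IFI44 lost their calls in this refit, and IFITM1 and IFI44L gained them. IFITM1 had not passed the main filter, and IFI44L had passed it only as above. These gains thus rest on the condition where both are high. The 12 members called higher were not a uniform group: 6 of them passed a 2-fold minimum, and the others lay between 0.34 and 0.91 on the log2 scale. Markers of the cells moved as well: KRT18 (-0.55 ± 0.12), KRT7 (-0.40 ± 0.11) and VIM (-0.49 ± 0.095) were called lower, and the part of such a shift in the members' values was not tested.

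In the IFIT family, whose members bind viral RNA or its cap, 2 of 4 rose. IFIT3 (chr10:89327894-89340971, GRCh38), which stabilises IFIT1, had 6.33, 6.70 and 6.47 CPM with Doxy and 14.4, 12.7 and 13.4 CPM without Doxy at 20% O2. All values without Doxy lay above all values with it, and the log2 fold change was 1.05 ± 0.080 (SE, adjusted p = 3.5e-06). IFIT2 (chr10:89283694-89309276) is much less abundant and had 0.703, 0.797 and 0.794 CPM with Doxy and 1.28, 1.71 and 1.66 CPM without Doxy. Its groups did not overlap either, with a log2 fold change of 1.02 ± 0.19 (adjusted p = 0.00186), although 10.3% of its exonic bases overlap other genes. IFIT1, the member that binds foreign RNA caps, had 1.66, 1.92 and 2.50 CPM with Doxy and 1.54, 1.96 and 1.69 CPM without Doxy. Its estimate was -0.23 ± 0.24 with an adjusted p of 0.498, and the 95% interval of -0.78 to 0.32 (8 degrees of freedom) leaves out a rise of the size measured for IFIT3. IFIT5, the most abundant of the family, had an estimate of -0.062 ± 0.081 (adjusted p = 0.592).

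The guanylate-binding proteins, GTPases that assemble on pathogen membranes, rose together. GBP1 (chr1:89052319-89065360) had 3.32, 3.88 and 3.79 CPM with Doxy and 6.64, 6.64 and 6.37 CPM without Doxy, a log2 fold change of 0.84 ± 0.11 (adjusted p = 0.000199). GBP2 (chr1:89106132-89150456) had 0.895, 1.52 and 1.41 CPM with Doxy and 2.34, 2.91 and 2.54 CPM without Doxy, a log2 fold change of 1.02 ± 0.22 (adjusted p = 0.00418). In both genes the values without Doxy lay above those with Doxy, and 9.89% of the exonic bases of GBP2 are shared with GBP7. Of the OAS family and ISG20, only OASL was called, an OAS-like protein that enhances RIG-I signalling, at 0.199 against 0.524 CPM. Its log2 fold change of 1.40 ± 0.39 (adjusted p = 0.0163) rests on 8, 7 and 3 and 16, 17 and 16 counts. OASL passed the count filter only through the cells at 20% O2 without Doxy, so it could not be tested without being high there. The call was lost without replicate 2 of these cells (edgeR, adjusted p = 0.0512). The exonuclease ISG20 (0.65 ± 0.27, adjusted p = 0.0832), OAS2 (0.60 ± 0.46) and OAS3 (0.12 ± 0.14) were not called.

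Among the membrane proteins the paralogs of the IFITM locus went in opposite directions. IFITM3 (chr11:319669-327537), which traps viruses at the endosomal membrane, had 10.6, 10.7 and 11.1 CPM with Doxy and 13.8, 13.8 and 13.5 CPM without Doxy. It rose by 0.34 ± 0.070 on the log2 scale (adjusted p = 0.00324). IFITM2 (chr11:307631-315272), its close paralog, had 19.9, 18.7 and 21.2 CPM with Doxy and 16.2, 16.2 and 15.3 CPM without Doxy. Its log2 fold change was -0.33 ± 0.076 (adjusted p = 0.00687), with every value without Doxy below every value with Doxy. These genes are near-identical over much of their length, and how reads with several alignments were counted is not stated, so the split of reads between them is uncertain. With a correction for GC content, which was added after the data were seen, IFITM2 was no longer called. IFI6, a mitochondrial and ER protein, rose by 0.71 ± 0.21 (adjusted p = 0.0219), but 5 of 19 refits lost this call, those without a filter, without replicate 2 or 3 of the cells with Doxy and without replicate 1 or 2 of the cells without Doxy at 20% O2 (adjusted p from 0.0603 to 0.0993). Its relative IFI27 had an estimate of 1.36 ± 0.50 with an adjusted p of 0.0539.

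The effectors held the largest folds. SAMD9L (chr7:93130055-93148369), which restrains translation, had 1.05, 1.27 and 1.18 CPM with Doxy and 6.03, 5.50 and 6.47 CPM without Doxy. The log2 fold change was 2.36 ± 0.32 (adjusted p = 0.000206), or 5.13-fold, while its paralog and neighbour SAMD9 had 28.0, 34.4 and 36.1 CPM with Doxy and 35.0, 33.8 and 37.0 CPM without Doxy and was not called (0.10 ± 0.12, adjusted p = 0.554). TRIM22, an antiviral ubiquitin ligase, was called at 2.80 ± 0.64 (adjusted p = 0.00606) on counts of 2, 1 and 4 with and 18, 18 and 15 without Doxy. IFI35 (chr17:43006725-43014456), a leucine zipper protein, had 3.07, 2.57 and 2.82 CPM with Doxy and 4.72, 5.06 and 4.42 CPM without Doxy, a log2 fold change of 0.74 ± 0.15 (adjusted p = 0.00303). IFI44 was called lower by a small amount (-0.26 ± 0.088, adjusted p = 0.0409), a call that 7 of 19 refits lost, among them those without replicate 2 or 3 of the cells with Doxy and replicate 1 or 2 of the cells without it, which left 1 lower call. None of the 4 genes of the ISG15 system was called. In the main fit the estimate for the ubiquitin-like modifier ISG15 was 0.41 ± 0.20 (adjusted p = 0.141), for its ligase HERC5 -0.19 ± 0.30, for HERC6 0.17 ± 0.13 and for the ISG15 protease USP18 0.55 ± 0.56.

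Of the 7 genes of signalling, sensing and transcription, STAT2 and IFIH1 were called. STAT2 (chr12:56341597-56360155), the subunit that brings the activation domain to ISGF3, had 32.2, 29.2 and 26.1 CPM with Doxy and 42.7, 41.9 and 42.7 CPM without Doxy. The groups did not overlap, and the log2 fold change was 0.54 ± 0.084 (adjusted p = 0.000541). IRF9 (chr14:24161053-24166565), the DNA-binding subunit of the same factor, had 1.69, 1.56 and 1.12 CPM with Doxy and 1.35, 1.77 and 1.82 CPM without Doxy, with overlapping groups and an estimate of 0.18 ± 0.21 (adjusted p = 0.559). Of its exonic bases 48.4% lie in another gene. IRF7 (chr11:612553-615999), which drives the later interferon alpha genes, had 4.73, 2.90 and 3.26 CPM with Doxy and 5.23, 5.85 and 5.10 CPM without Doxy. Its groups did not overlap, but the spread was wide and the estimate of 0.57 ± 0.28 had an adjusted p of 0.140. It was called when only the 6 libraries at 20% O2 were fitted (adjusted p = 0.0336), with the GC correction (0.93, adjusted p = 0.00041) and without replicate 1 of the cells at 3% O2 without Doxy (0.0497). IRF1 (chr5:132481609-132490798), an early factor downstream of interferon gamma, had 17.2, 15.3 and 14.8 CPM with Doxy and 17.2, 18.0 and 18.3 CPM without Doxy and was not called (0.17 ± 0.095, adjusted p = 0.181). IFIH1 (chr2:162267079-162318703) encodes MDA5, a sensor of long double-stranded RNA, and had 0.448, 0.978 and 0.764 CPM with Doxy and 1.22, 1.23 and 1.66 CPM without Doxy. It was called at 0.91 ± 0.32 (adjusted p = 0.0480), but 13 of 19 refits lost the call, and with the replicate block the adjusted p was 0.0679. PARP9 and DTX3L, partners in a ubiquitin ligase complex, had estimates of 0.25 ± 0.096 and 0.11 ± 0.066 and were not called.

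**Figure D2:**
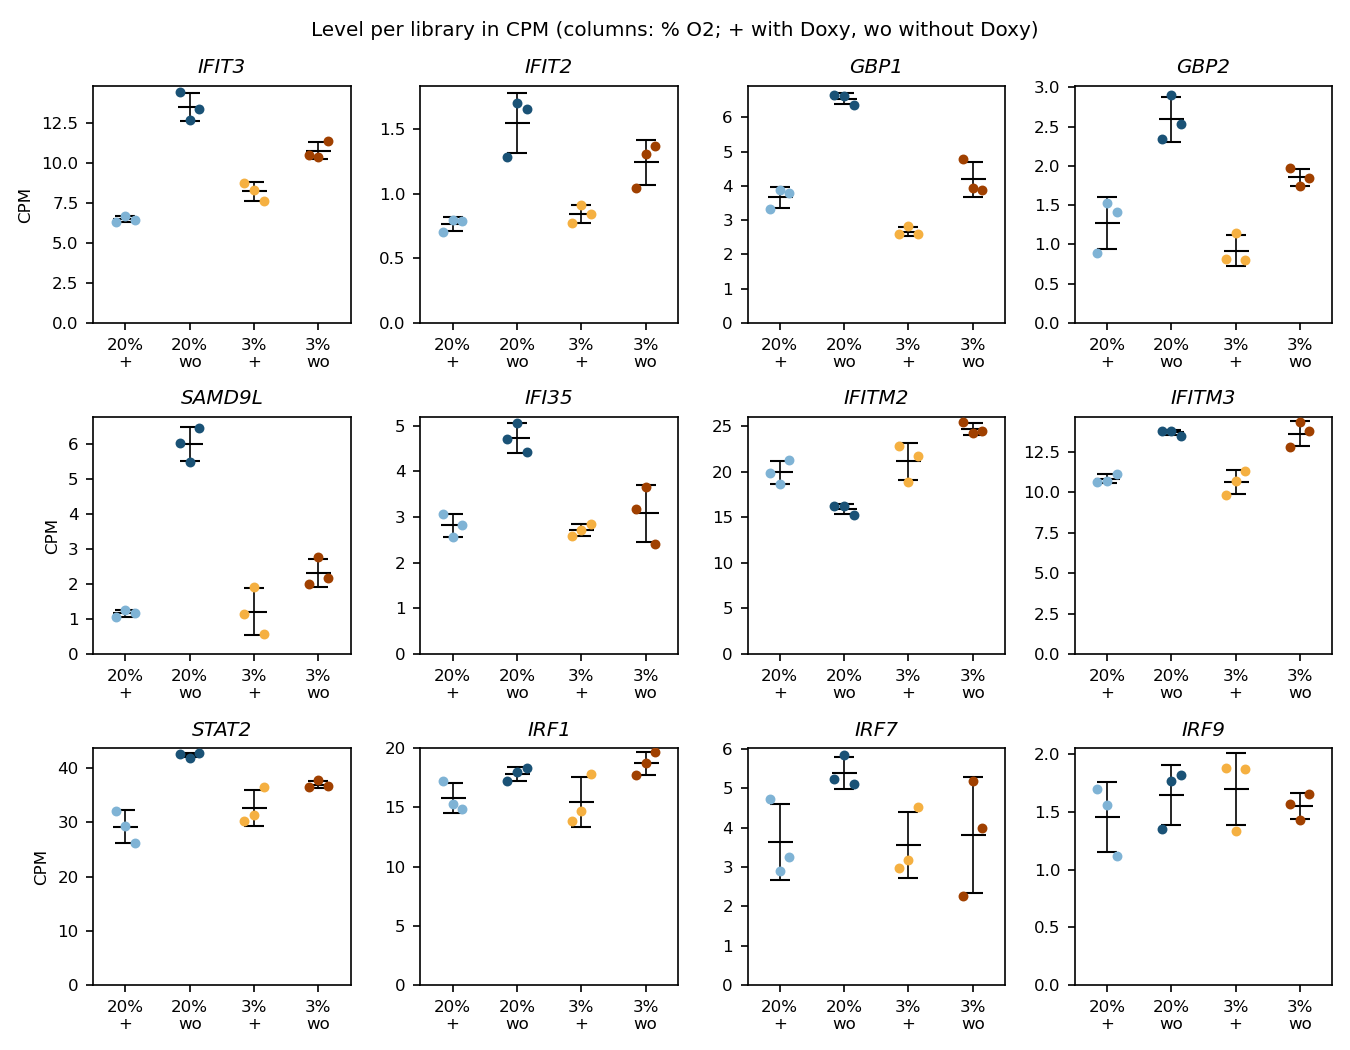
Level in CPM (vertical axes, from 0) of 12 members in each library, by condition (20% or 3% O2, + with and wo without Doxy); points are libraries, and the black line and bar are the mean and 1 SD of 3 libraries. IFIT3, GBP1, SAMD9L and STAT2 are highest in the cells at 20% O2 without Doxy, whereas IFITM2 is lowest there.

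At 3% O2, the comparison asks how these genes stand in cells from which Doxy was withdrawn at 20% O2 before culture at low oxygen. The guanylate-binding proteins GBP2 and GBP1, the RNA-binding protein IFIT3 and the membrane protein IFITM3 rose. They were 4 of the 31 tested members (12.9%), against 4.20% of all tested genes called higher, and 0 members were called lower, against 3.11%. The median log2 fold change of the tested members was 0.18, against 0.04 over all tested genes. At an unadjusted p under 0.05 there were 9 of the 31 members, against 3901 of all 16891 tested genes. Leaving out replicate 2 of the cells with Doxy also gave 4 higher and 0 lower, with SAMD9L in place of IFIT3 (adjusted p = 0.0641), but 2 were higher without replicate 1 of these cells, or without replicate 2 or 3 of the cells without Doxy, and 1 (SAMD9) was lower without replicate 3 of the cells with Doxy. All 4 calls were lost when only the 6 libraries at 3% O2 were fitted or when no count filter was used, where GBP2 had adjusted p values of 0.0906 and 0.0707. With the GC correction 7 members were called higher and 1 lower. CDH5, an endothelial gene, was also called higher in this comparison (0.49 ± 0.12), while PECAM1 and VWF stayed at 6 counts or fewer.

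GBP2 had 0.809, 1.15 and 0.808 CPM with Doxy and 1.97, 1.75 and 1.84 CPM without Doxy at 3% O2, with no overlap and a log2 fold change of 1.01 ± 0.23 (adjusted p = 0.0222). GBP1 had 2.59, 2.83 and 2.59 CPM with Doxy and 4.79, 3.93 and 3.87 CPM without Doxy and a log2 fold change of 0.65 ± 0.12 (adjusted p = 0.00751). The GTPases were thus the members with the largest called folds at 3% O2, although 8 of 19 refits lost the call of GBP2, 6 of them with a library left out (replicate 3 at 20% O2 without Doxy, replicates 1 and 3 at 3% O2 with Doxy and each replicate at 3% O2 without Doxy). IFIT3 had 8.74, 8.33 and 7.60 CPM with Doxy and 10.5, 10.4 and 11.4 CPM without Doxy, which gave 0.39 ± 0.080 (adjusted p = 0.0148). IFITM3 had 9.81, 10.7 and 11.3 CPM with Doxy and 12.8, 14.3 and 13.8 CPM without Doxy and 0.36 ± 0.070 (adjusted p = 0.0114). The calls of IFIT3 and IFITM3 were each lost in 4 of 19 refits. In all 4 genes each value without Doxy lay above each value with Doxy. These genes were picked by a call on the same libraries, and genes without overlap were not counted over all tested genes.

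Several members that rose at 20% O2 had wide or small estimates at 3% O2. SAMD9L had 1.13, 1.91 and 0.582 CPM with Doxy and 2.01, 2.78 and 2.18 CPM without Doxy, where the values with Doxy spread widely, and 0.95 ± 0.32 (adjusted p = 0.0979). When the library that stood apart (replicate 2 with Doxy) was left out, SAMD9L was called at 1.42 (adjusted p = 0.0234). IFIT2 had 0.777, 0.917 and 0.841 CPM with Doxy and 1.05, 1.31 and 1.37 CPM without Doxy and 0.56 ± 0.19 (adjusted p = 0.107). For IFI35 the libraries gave 2.59, 2.71 and 2.84 CPM with Doxy and 3.18, 3.65 and 2.40 CPM without Doxy, with an estimate of 0.18 ± 0.15 (adjusted p = 0.530). These groups did not overlap for SAMD9L and IFIT2 and did so for IFI35. STAT2 had 30.2, 31.3 and 36.4 CPM with Doxy and 36.5, 37.8 and 36.6 CPM without Doxy, 0.18 ± 0.084 (adjusted p = 0.228). IFITM2 had 22.8, 18.9 and 21.7 CPM with Doxy and 25.5, 24.2 and 24.5 CPM without Doxy, 0.23 ± 0.076 (adjusted p = 0.0989), the opposite sign to its change at 20% O2. Among the regulators, IRF1 had 13.9, 14.7 and 17.8 CPM with Doxy and 17.8, 18.8 and 19.7 CPM without Doxy and an estimate of 0.28 ± 0.095 (adjusted p = 0.107). IRF7, with 2.98, 3.17 and 4.53 CPM with Doxy and 2.25, 5.20 and 3.99 CPM without Doxy, gave 0.10 ± 0.28, and its sign depended on single libraries. IRF9 had 1.88, 1.34 and 1.88 CPM with Doxy and 1.57, 1.43 and 1.65 CPM without Doxy, -0.13 ± 0.21, and IFIH1 had 0.907, 1.07 and 0.517 CPM with Doxy and 0.765, 0.675 and 0.873 CPM without Doxy, -0.099 ± 0.33. No adjusted p of IRF7, IRF9 or IFIH1 was below 0.756 here. The members of low level TRIM22, OASL and IFI27 had estimates of 0.99 ± 0.60, 0.68 ± 0.40 and 0.90 ± 0.50, none of them called.

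**Figure D3:**
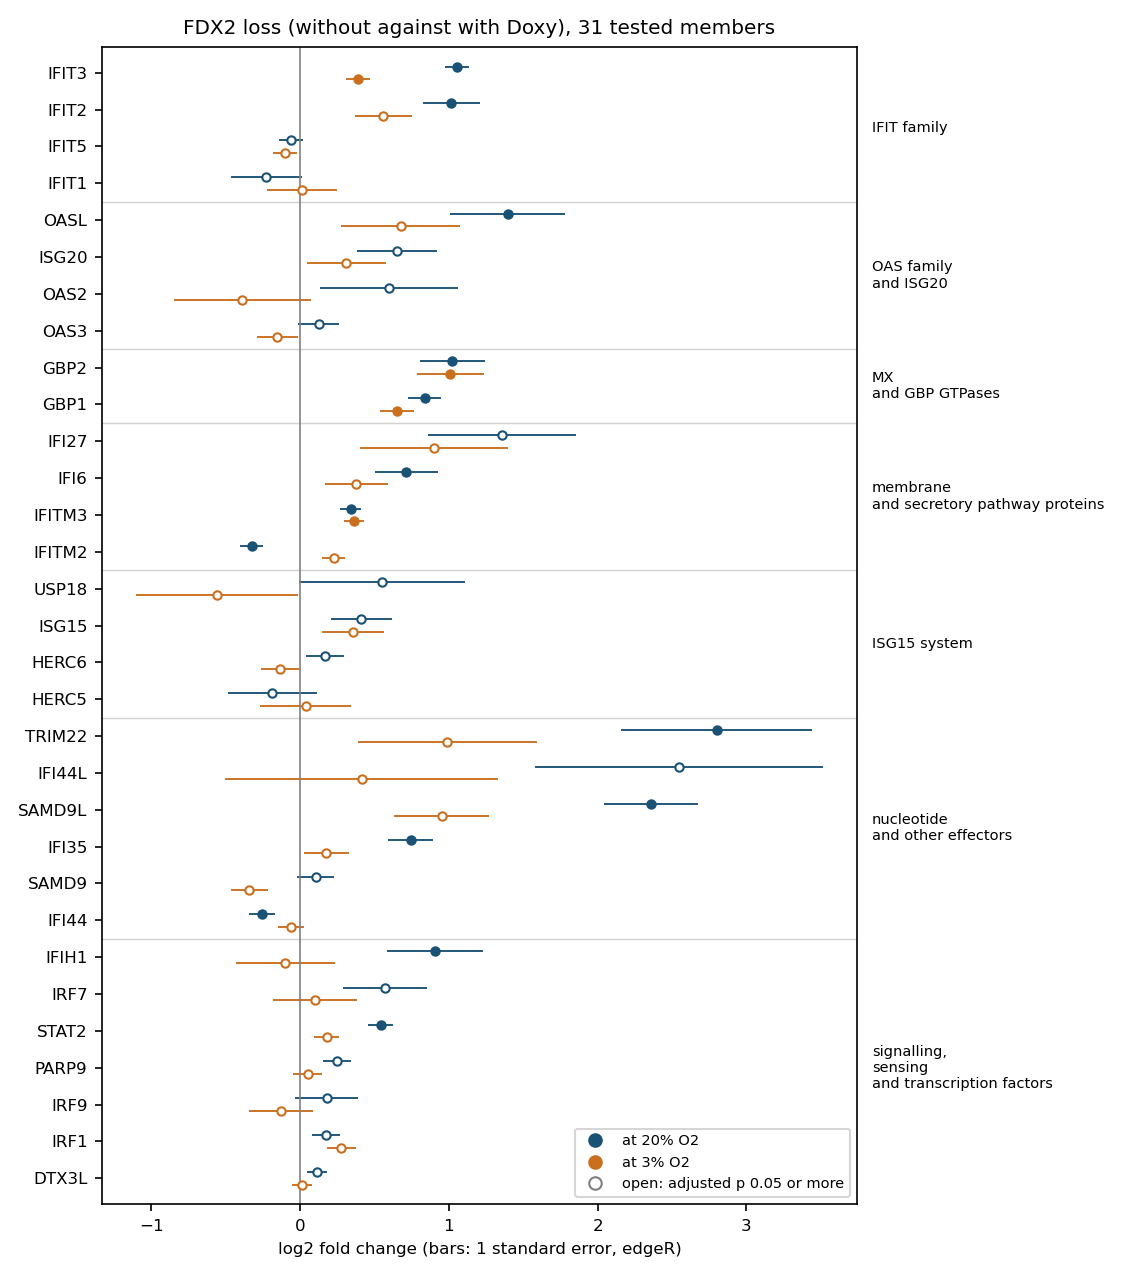
Log2 fold change of FDX2 loss (horizontal axis) for the 31 tested members, by role, at 20% O2 (blue) and 3% O2 (orange); points are edgeR estimates, bars 1 standard error, and filled points have an adjusted p under 0.05. At 20% O2, 12 members are called higher and 2 lower, and at 3% O2, 4 are called higher.

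The response of IFIT3 to FDX2 loss was smaller at 3% than at 20% O2, and that of IFITM2 differed in sign. Whether a response differed was tested as an interaction, 3% minus 20% O2, over the 12 libraries. It was called for 2 members, 1 lower (3.23%, against 4.08% of all tested genes) and 1 higher (3.23%, against 3.21%), so the share of members was near that of all genes. The difference for IFIT3 was -0.67 ± 0.11 on the log2 scale (adjusted p = 0.00602), and this call was kept in 18 of 18 refits. IFITM2 had a difference of 0.55 ± 0.11 (adjusted p = 0.0125), which the GC correction lowered to 0.40 (adjusted p = 0.0819). For the other members called at 20% O2 a difference was not shown. SAMD9L had -1.41 ± 0.44 (adjusted p = 0.0842) and STAT2 -0.36 ± 0.12 (adjusted p = 0.0944), and DESeq2's Wald test called both. For GBP2 the difference was -0.014 ± 0.34, with a 95% interval of -0.79 to 0.76, and for IFITM3 it was 0.023 ± 0.099, with an interval of -0.20 to 0.25. Over the tested members the median difference was -0.34, against 0.05 over all tested genes. Without OASL and IFI44L, which passed the count filter only through the cells at 20% O2 without Doxy, the median was -0.31. The members called lower numbered 6 with the GC correction. Without replicate 2 of the cells at 3% O2 with Doxy the calls were 1 higher and 1 lower, and without replicate 3 of these cells or replicate 1 of those at 20% O2 with Doxy 2 were lower.

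In the presence of Doxy, no member passed the threshold between 3% and 20% O2. Of the 31 tested members 0 were called higher, against 1.63% of all tested genes, and 0 lower, against 0.385%, by edgeR, and DESeq2's Wald test also called 0. At an unadjusted p under 0.05 there were 4 of the 31 members, against 2193 of all 16891 tested genes. IFIT3 had an estimate of 0.34 ± 0.081 (adjusted p = 0.0616), with all values at 3% O2 above those at 20%. GBP1 had -0.46 ± 0.12 (adjusted p = 0.0762), with all values at 3% O2 below those at 20%. SAMD9 had 28.0, 34.4 and 36.1 CPM at 20% and 46.6, 43.6 and 36.4 CPM at 3% O2, an estimate of 0.36 ± 0.12 (adjusted p = 0.200). The GC correction called these 3. For STAT2 the estimate was 0.16 ± 0.084, with a 95% interval of -0.032 to 0.36, and the groups overlapped. The median of the tested members was 0.08. Without replicate 2 at 3% O2 it was 0.037, with 0 calls in each direction, while 1 member was higher without replicate 3 at 3% O2 (IFIT3) and 1 lower without replicate 1 of the cells at 3% O2 without Doxy (GBP1).

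Without Doxy, the comparison of 3% with 20% O2 asks how FDX2-deficient cells differ between the oxygen levels. SAMD9L, GBP1, IFI35 and IFIT3 were lower and IFITM2 was higher at 3% O2. This comparison uses the same libraries at 20% O2 without Doxy as that of FDX2 loss at 20% O2, so the values are given side by side with those above and not as a separate result. Of the 31 tested members 4 were called lower (12.9%, against 11.9% of all tested genes) and 1 higher (3.23%, against 13.9%). The share of lower calls was thus near that of all genes. Without replicate 1 of the cells at 20% O2 with Doxy, which enters through the shared spread, 8 members were lower, and without replicate 1 at 20% or replicate 2 at 3% O2 IFIT3 lost its call. The median of the tested members was -0.23, against 0.07 over all tested genes. Without OASL and IFI44L, which passed the count filter only through the cells at 20% O2 without Doxy, the median was -0.20. Of the markers KRT8 (0.82 ± 0.17), KRT18 (0.42 ± 0.12), VIM (0.54 ± 0.095) and CDH5 (0.77 ± 0.12) were called higher at 3% O2, and their part in these values was not tested.

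SAMD9L fell from 6.00 ± 0.485 CPM (SD, n = 3) at 20% O2 to 2.32 ± 0.402 CPM at 3% O2. The log2 fold change was -1.37 ± 0.30 (adjusted p = 0.00828), the largest called among the members. GBP1 fell from 6.55 ± 0.156 CPM to 4.20 ± 0.516 CPM, or -0.64 ± 0.11 (adjusted p = 0.00226). IFI35 fell from 4.73 ± 0.319 CPM to 3.08 ± 0.631 CPM, or -0.62 ± 0.15 (adjusted p = 0.0130). IFIT3 fell from 13.5 ± 0.857 CPM to 10.8 ± 0.541 CPM, or -0.33 ± 0.078 (adjusted p = 0.0123). IFITM2 was the single member called higher, from 15.9 ± 0.550 CPM to 24.7 ± 0.663 CPM, or 0.64 ± 0.076 (adjusted p = 0.000234). In these 5 genes, picked by a call on the same libraries, the groups did not overlap, which was not counted over all tested genes. IFITM3 had 13.7 ± 0.168 CPM and 13.6 ± 0.791 CPM, an estimate of -0.0068 ± 0.069 with a 95% interval of -0.17 to 0.15.

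A fit of the 6 libraries without Doxy alone kept the 5 calls and added 4 lower ones, ISG15, STAT2, IFIH1 and DTX3L. The labels do not state that the replicate numbers match between conditions. With a replicate block by these numbers in the same 6 libraries, STAT2 and IFIH1 were still called while ISG15 and DTX3L were not. STAT2 had -0.20 ± 0.083 (adjusted p = 0.102) over 12 libraries, and over 6 libraries an adjusted p of 0.00753 without and 0.0228 with the block. IFIH1 had -0.82 ± 0.32 (adjusted p = 0.0846) over 12 libraries, and over 6 libraries 0.0305 without and 0.0458 with the block. ISG15 stood at the threshold over 12 libraries (-0.61 ± 0.21, adjusted p = 0.0501), with 0.0301 over 6 libraries without the block. A replicate block over all 12 libraries left the 5 calls as they were. The other members of low level, such as OAS2 (-0.31 ± 0.46) and TRIM22 (-0.62 ± 0.54), were not called.

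**Figure D4:**
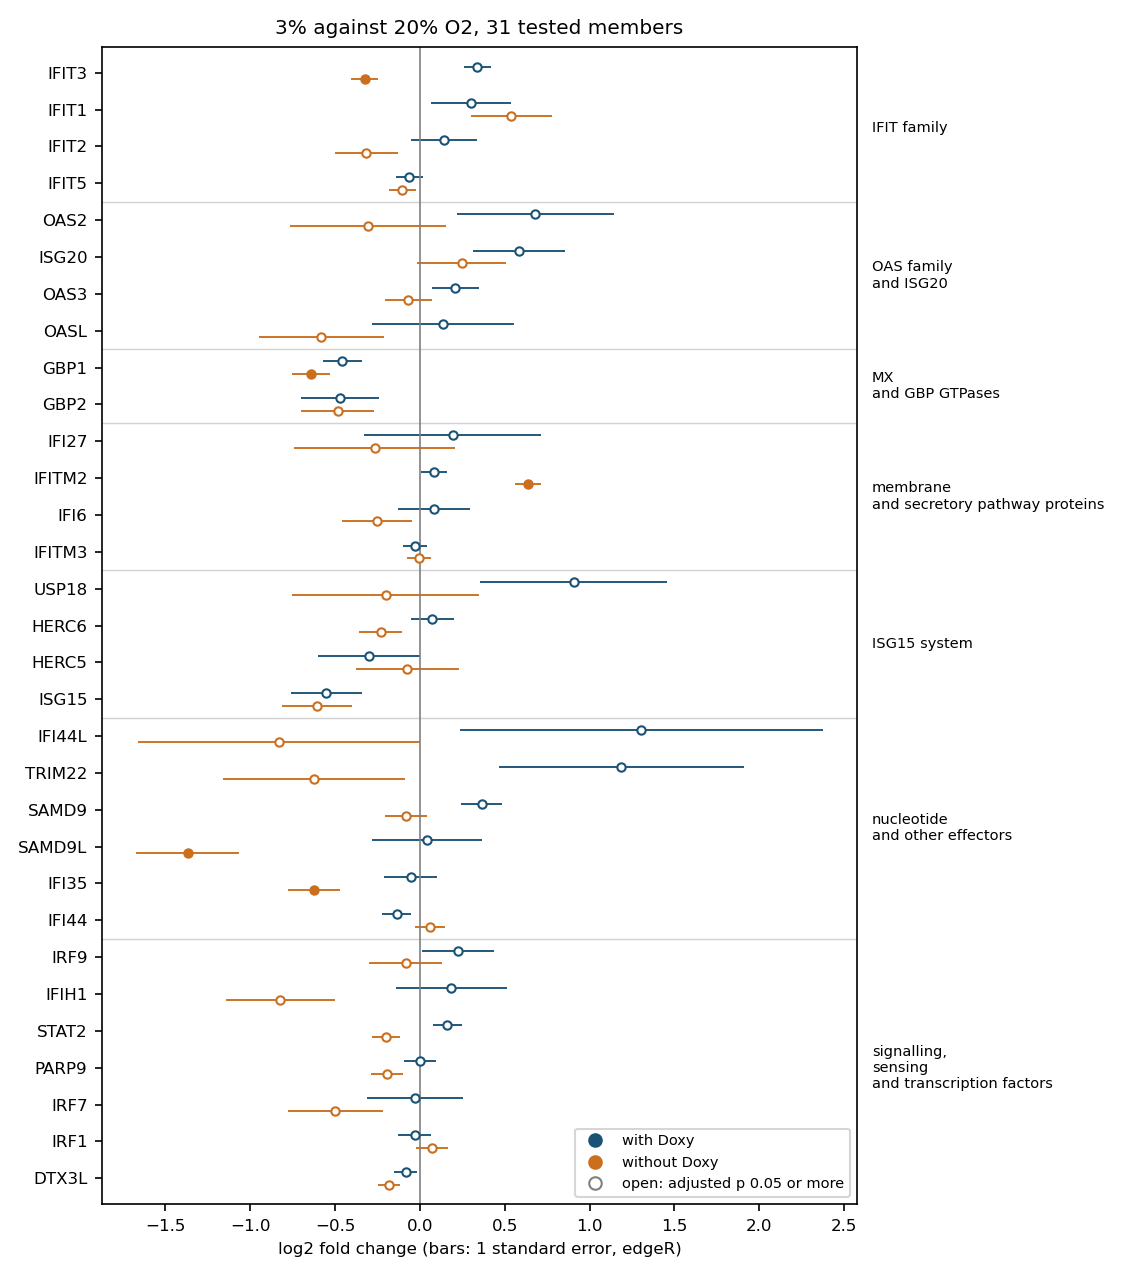
Log2 fold change of 3% against 20% O2 (horizontal axis) for the 31 tested members, by role, with Doxy (blue) and without Doxy (orange); points are edgeR estimates, bars 1 standard error, and filled points have an adjusted p under 0.05. With Doxy no point is filled, and without Doxy 4 members are called lower and IFITM2 higher.

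The genes around the members were read in the same fits. Of 10 interferon genes, only IFNE, an epithelial type I interferon, had enough counts to be tested, and it was not called in any of the 5 comparisons (FDX2 loss gave 0.43 ± 0.17 at 20% and 0.44 ± 0.17 at 3% O2). IFNB1, IFNA1 and IFNA2 had at most 2 counts in a library, and IFNK, IFNW1, IFNL1, IFNL2, IFNL3 and IFNG had 0. At this depth RNA below these levels was not detectable. Of 9 receptor chains and kinases 8 were tested and 0 were called in any of the 5 comparisons by edgeR, where between 0.385% and 17.7% of all tested genes were called in a direction. For FDX2 loss at 20% O2, 3 of the 8 had an unadjusted p under 0.05, against 7535 of all 16891 tested genes. IFNAR1 had an estimate of 0.020 ± 0.066 there with a 95% interval of -0.13 to 0.17, and JAK1 0.053 ± 0.045 with -0.051 to 0.16. Counts of IFNAR2 are uncertain, since 83.2% of its exonic bases lie in other genes.

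With FDX2 loss at 20% O2 the adaptor STING1 and the DNA sensor IFI16 rose. Of 14 nucleic acid sensors, adaptors and kinases 12 were tested, and in this comparison 2 were called higher (16.7%, against 17.6% of all tested genes) and 1 lower (8.33%, against 17.7%), so the group as a whole was at or below the share of all genes. STING1, the adaptor of cytosolic DNA sensing, had 1.66, 1.09 and 1.15 CPM with Doxy and 2.44, 3.07 and 2.86 CPM without Doxy and rose by 1.10 ± 0.20 (adjusted p = 0.00162). IFI16 rose by 0.49 ± 0.080 (adjusted p = 0.000757), and the adaptor TRAF3 had -0.32 ± 0.10 (adjusted p = 0.0325). CGAS, the enzyme upstream of STING1, had 0 to 6 counts and was not tested. The RNA sensor RIGI and the adaptor MAVS were not called, with 0.15 ± 0.072 and -0.077 ± 0.082. At 3% O2 FDX2 loss gave 0 calls in this group, where 4.20% of all tested genes were called higher and 3.11% lower. Between 3% and 20% O2 without Doxy, IFI16 had -0.39 ± 0.080 (adjusted p = 0.00510) and DHX58, a regulator of RNA sensing at 2 to 14 counts, 2.22 ± 0.41 (adjusted p = 0.00333). These were 1 of 12 called lower (8.33%, against 11.9% of all tested genes) and 1 higher (8.33%, against 13.9%). Whether DHX58 reached the count filter only through the cells at 3% O2 without Doxy, where it was higher, was not checked. The response of IFI16, the 1 lower call of this group (8.33%, against 4.08% of all tested genes), differed between the oxygen levels by -0.44 ± 0.11 (adjusted p = 0.0409). Calls this near the threshold, that of TRAF3 among them, were not followed through the refits.

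Of 10 genes that restrain the response 9 were tested, and with FDX2 loss at 20% O2, 0 were called higher, against 17.6% of all tested genes, and 3 lower (33.3%, against 17.7%). SOCS1, which blocks JAK kinases, had 2.14, 1.41 and 1.15 CPM with Doxy and 0.481, 0.537 and 0.553 CPM without Doxy and a log2 fold change of -1.57 ± 0.32 (adjusted p = 0.00303). RNASEH2C, a subunit of the RNase that clears ribonucleotides from DNA, had -0.49 ± 0.098 (adjusted p = 0.00274), and the RNA editor ADAR -0.22 ± 0.070 (adjusted p = 0.0301). At 3% O2 FDX2 loss gave 0 calls here, against 4.20% of all tested genes called higher and 3.11% lower. Without Doxy SOCS1 was higher at 3% than at 20% O2 by 1.98 ± 0.32 (adjusted p = 0.00144) and RNASEH2C by 0.61 ± 0.098 (adjusted p = 0.00144). PTPN2, a phosphatase of STAT proteins, had -0.22 ± 0.055 (adjusted p = 0.0143). These were 2 of 9 called higher (22.2%, against 13.9% of all tested genes) and 1 lower (11.1%, against 11.9%). The response of RNASEH2C, the 1 higher call of this group (11.1%, against 3.21% of all tested genes), differed between the oxygen levels by 0.53 ± 0.14 (adjusted p = 0.0423).

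**Figure D5:**
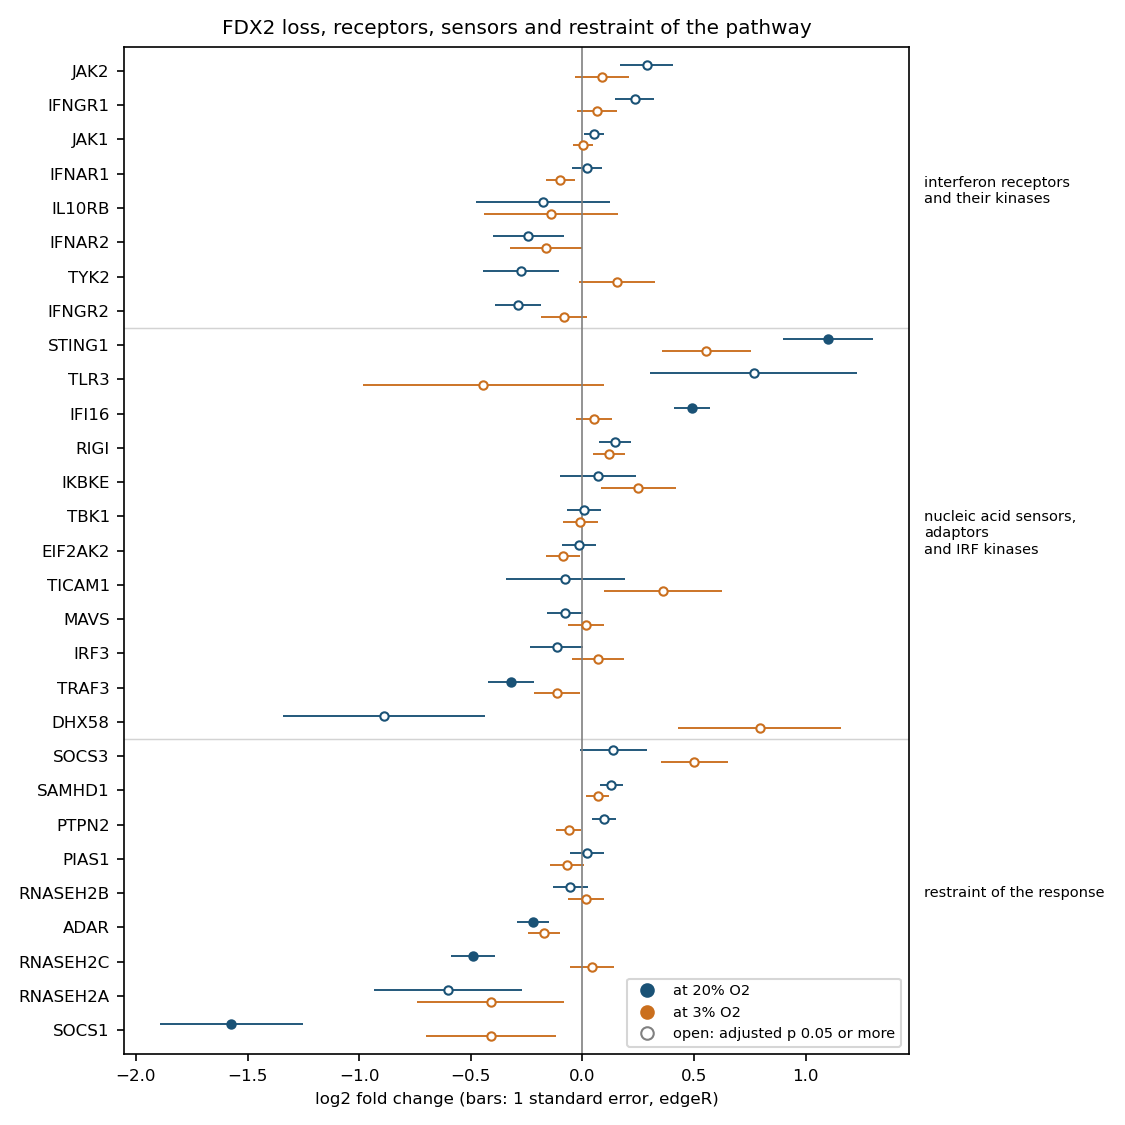
Log2 fold change of FDX2 loss (horizontal axis) for the tested receptors and kinases, nucleic acid sensors and adaptors, and genes that restrain the response, at 20% O2 (blue) and 3% O2 (orange); points are edgeR estimates, bars 1 standard error, and filled points have an adjusted p under 0.05. STING1 and IFI16 are called higher at 20% O2, TRAF3, SOCS1, RNASEH2C and ADAR lower, and none is called at 3% O2.

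A further 24 interferon-induced genes outside the 39 had 20 tested members, of which 12 were called higher (60%, against 17.6% of all tested genes) and 1 lower (5%, against 17.7%) with FDX2 loss at 20% O2. This list too was chosen with earlier results of these data known, so the share describes the list alone. Genes in it that reached the count filter only through 1 condition were not looked for. The largest were UBE2L6 and UBA7, the conjugating and activating enzymes of ISG15, which rose by 3.05 ± 0.44 (adjusted p = 0.000348) and 1.91 ± 0.39 (adjusted p = 0.00317) from 5, 2 and 3 and 5, 3 and 5 counts. These counts lie under the filter's minimum count of 10. Both genes may thus have been tested only through the cells at 20% O2 without Doxy, where they were high, which was not checked. DDX60L followed with 0.71 ± 0.17 (adjusted p = 0.00793). At 3% O2, 2 were called higher (10%, against 4.20%), PARP10 with 0.89 ± 0.15 (adjusted p = 0.00591) and PARP14 with 0.31 ± 0.084 (adjusted p = 0.0487). With Doxy, low oxygen gave 0 calls, against 1.63% of all tested genes called higher and 0.385% lower. Without Doxy 9 were lower at 3% than at 20% O2 (45%, against 11.9%) and 0 higher (against 13.9%), and the difference of the responses was called lower for 4 (20%, against 4.08%), led by CD274, which encodes PD-L1, with -0.56 ± 0.12 (adjusted p = 0.0216).

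Read against the promoters printed above, the ISRE core was found among members with and without a change. Of the 8 members called higher with FDX2 loss at 20% O2 that have a promoter entry, 5 held the core, and of the 14 tested and not called, 11 held it. Of the 7 that were not tested, 4 held it. RNA was measured in bulk, so that a rise in each cell and a rise in a part of the cells cannot be told apart. The measurements are of RNA, and interferon protein and STAT phosphorylation were not analysed here.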

How the data were processed

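RNA-seq was made from 12 libraries of FDX2-iKO ES2 cells (4 conditions, 3 replicates each). Poly(A) RNA was sequenced in pairs on the DNBSEQ-T7 platform. Before deposition the authors mapped the reads to GRCh38 using STAR and summed them over genes using featureCounts. What they deposited are raw read counts, neither normalized nor pooled. For replicates 1 and 2 of 20% O2 + Doxy the submitters note a read file lost in transfer, with counts kept. Tool versions, strandedness and the handling of multiply aligned reads are not given in the sources used here.

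All 58735 identifiers match GENCODE 29 (GRCh38), from which positions, exon lengths and overlaps were taken. The 39 members and the lists of pathway genes and markers were chosen with earlier results of these data known. Some genes of these lists are counted in them but not reported here by name. In R 4.3.3, edgeR 4.0.16 kept 16891 genes (filterByExpr, minimum count 10, minimum total 15), scaled them by TMM, and fitted quasi-likelihood models with 4 condition means to the 12 libraries (8 residual degrees of freedom). In each of 5 comparisons p-values were adjusted by Benjamini-Hochberg over all tested genes and called at an adjusted p under 0.05. Log2 fold changes carry standard errors, levels carry the SD over 3 replicates, and 95% intervals use 8 degrees of freedom. The steps were tested on simulated counts. p-values measure the spread between these libraries.

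Values in every library are given for members with a mean of at least 1 CPM that are called and among the 5 largest folds of a comparison, and for STAT2, IRF1, IRF7, IRF9 and IFIH1. For the other members a role group is given by counts and ranges with named examples, and of each pathway list up to 3 called genes are named per comparison. SAMD9, IFIT1 and a few members of low level were shown in addition, after their values were seen. Alternatives were DESeq2's size factors, no filter, 10 or more counts in all libraries, a replicate block, DESeq2 1.42.0 (Wald test), a fit to the compared conditions alone, a 2-fold minimum and leaving out each library. A GC correction (lowess of log2 CPM on transcript GC content, span 0.3) and fits of the cells without Doxy with a replicate block were added after the data were seen. Between the cells without Doxy at 20% and 3% O2, deviations of same-numbered libraries from their condition correlated by 0.190 to 0.497 (others -0.473 to 0.231). Replicate 2 at 20% O2 correlated less with replicate 2 (0.190) than with replicate 3 (0.211) at 3% O2. The labels state no match of replicates, so whether these libraries are paired is not known. No other pair of conditions had all 3 same-numbered correlations above 0.1, and this pair was picked after the values were seen. Of 40 RefSeq promoter entries of members, 36 end in letters of a GENCODE transcript of the gene. The printed entry of GBP1 is among those that do not. For members with several, the entry nearest the gene's annotated start is printed.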

Additional observations from a re-analysis of the deposited data

Results flagged for a closer look

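IFIT3 responded to FDX2 loss differently at the 2 oxygen levels, by -0.67 on the log2 scale (3% minus 20% O2, edgeR interaction, adjusted p = 0.00602), with a log2 fold change of 1.05 at 20% and 0.39 at 3% O2. All 3 values without Doxy were above all 3 values with Doxy at each oxygen level. The response of IFITM2 differed by 0.55 (adjusted p = 0.0125), with -0.33 at 20% and 0.23 at 3% O2. The second of these response estimates was not called by itself (adjusted p = 0.0989), and 22.8% of the exonic bases of IFITM2 are shared with IFITM1. For both genes the difference itself passed the threshold, which is why they are singled out here.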

How the results depend on the processing

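Of the calls at 20% O2, those of IFIT2, IFIT3, GBP1, GBP2, IFITM3, SAMD9L, IFI35 and STAT2 were kept in all 19 refits, which leave the threshold as it was. A 2-fold minimum left 6 members higher and 0 lower with FDX2 loss at 20% O2, 1 higher at 3% O2, 0 higher and 1 lower for 3% against 20% O2 without Doxy, and 0 higher and 0 lower for the difference of responses. With at least 10 counts in every library 1 member was lower with FDX2 loss at 20% O2, 7 were lower for 3% against 20% O2 without Doxy, and 2 had a lower difference. The replicate block over 12 libraries left 1 member lower with FDX2 loss at 20% O2, since IFI44 was lost, along with IFIH1 among the higher calls. Without a filter, and with only the conditions compared, 0 members were higher with FDX2 loss at 3% O2, and the latter fit gave 8 lower without Doxy. DESeq2 gave 3 members a lower difference. The GC correction gave 18 higher and 1 lower with FDX2 loss at 20% O2 (ISG20, IFI27, ISG15, IRF1, IRF7 and PARP9 were gained and IFITM2 was lost), 7 higher and 1 lower at 3% O2, 2 higher and 1 lower for oxygen with Doxy, 3 higher and 7 lower without Doxy, and a lower difference for 6. For the comparison without Doxy, the replicate block with the GC correction over 6 libraries gave 2 higher and 8 lower, and the block without this correction 1 higher and 6 lower. Calls over all tested genes under these refits, or with a library left out as below, are not given here. A change in the number of members called is therefore not read as particular to the members. The causes of these moves were not tested.

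Leaving out 1 library at a time gave 9 to 17 members higher and 1 to 2 lower with FDX2 loss at 20% O2. The 17, reached without replicate 1 of 3% O2 wo Doxy, include IFITM1 and XAF1, which had not passed the main filter. The lower count was 1 without replicate 2 or 3 of 20% O2 + Doxy, replicate 1 or 2 of 20% O2 wo Doxy, or replicate 2 of 3% O2 + Doxy. With FDX2 loss at 3% O2 it gave 2 to 4 higher and 0 to 1 lower. The 2 were reached without replicate 1 of 3% O2 + Doxy and without replicate 2 or 3 of 3% O2 wo Doxy, and the 1 lower, SAMD9, without replicate 3 of 3% O2 + Doxy. For oxygen with Doxy the counts were 0 to 1 higher (IFIT3, without replicate 3 of 3% O2 + Doxy) and 0 to 1 lower (GBP1, without replicate 1 of 3% O2 wo Doxy). Without Doxy they were 3 to 8 lower, with 8 reached without replicate 1 of 20% O2 + Doxy, and 1 higher throughout. The lower difference was called for 1 to 2 members, with 2 without replicate 1 of 20% O2 + Doxy or replicate 3 of 3% O2 + Doxy. The estimate of IRF7 with FDX2 loss at 3% O2 changed sign, at -0.061 with the GC correction and -0.18 to 0.36 over the libraries left out, and so did IFIH1, at -0.35 to 0.10. Depth limits the members under 1 CPM, such as TRIM22, OASL and IFI44L, whose estimates rest on 0 to 18 counts in a library.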

Other observations

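In the cells at 3% O2 with Doxy, several members of low level had far higher values in replicate 2 than in the other two libraries. The counts of OAS1 were 1, 10 and 0, those of USP18 9, 22 and 10, those of TRIM22 1, 10 and 4 and those of IFI44L 3, 11 and 0. OAS2 had 6, 20 and 14 counts and XAF1 1, 5 and 2. The abundant members STAT2, IFIT5 and IFITM2 had 30.2, 31.3 and 36.4, 32.2, 34.6 and 29.8 and 22.8, 18.9 and 21.7 CPM in the same libraries. These genes were picked after their values were seen, and no test was made of them.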
